A study of Mus musculus with 16 samples.

Results

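Kidneys of mouse embryos that lacked Ezh2 in the nephron lineage and Ezh1 in every cell were compared with control kidneys. These kidneys, called double knockouts here, fill 4 of the 16 arrays of the series and the controls another 4, so the comparison rests on 8 arrays, chosen by their titles. All samples were whole kidneys of C57BL/6 embryos at embryonic day 17.5. In the double knockout, Ezh2 was deleted on both alleles in Six2-positive nephron progenitors, the cells that self-renew and form the nephron epithelium, and Ezh1 was lost on both alleles through the germline. The controls are labelled wildtype and come as kidney pairs. The transgene that deleted Ezh2 is described only by its Six2-positive target cells, and whether controls carried it is not stated in the labels used here. Cells outside the Six2-positive lineage, such as stroma, vessels and ureteric epithelium, were not targets of the Ezh2 deletion and lack Ezh1 only. The other 8 arrays, used here to set the double knockout beside its nearest genotypes, carried the same Ezh2 deletion with both Ezh1 alleles intact (the Ezh2-KO group, 4 arrays) or with 1 Ezh1 allele lost (the Ezh1-het group, 4 arrays).

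Ezh1 and Ezh2 are the alternative catalytic subunits of Polycomb repressive complex 2 (PRC2), which methylates lysine 27 of histone H3. The mark holds developmental regulators silent outside their proper tissue, and many of its target promoters are rich in the dinucleotide CG. Ezh2 is the main enzyme in dividing cells and Ezh1 is the more widely expressed enzyme of differentiated and resting cells, and each can partly stand in for the other. Well-known targets are the Hox clusters, other developmental transcription factor genes and the Cdkn2a-Cdkn2b locus of cell-cycle inhibitors.

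Each array measured 1 sample in Cy5 against RNA of control 1 in Cy3, so the value of a gene on an array is log2 of its level over control 1, and control 1 was measured against itself. Differences are double-knockout mean minus control mean on the log2 scale, with the standard error (SE) of a limma model and n = 4 arrays per group. A gene was called where the adjusted p of that model was under 0.05. Replicates 1 and 2 of each group lie on slide 1 and replicates 3 and 4 on slide 2. On both slides the control and Ezh2-KO arrays lie in row 1 and the Ezh1-het and double-knockout arrays in row 2, so the effect of the row and that of the genotype cannot be told apart between double knockout and control, or between double knockout and Ezh2-KO. On these 8 arrays the upper-quartile Cy5 signal was 5.21 to 12.5 times background, with 53.1% to 60.7% of probes detected well above it. Control 2 had the lowest value of both, and control 3 had the most extreme score on the first principal component of all 16 arrays (37.3). Whole kidneys were measured, so fewer cells of a type and less RNA per cell cannot be told apart.

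Ezh1 was nearly lost, as the genotype label states. Its log2 values were -4.44, -4.59, -4.57 and -4.62 on the double-knockout arrays and 0.05, -0.31, 0.22 and -0.28 on the control arrays. The double-knockout arrays lay within 0.08 (SD) of each other and far from every control. The difference was -4.47 (SE 0.15, 22.2-fold, limma adjusted p = 5.47e-11). The 5 probes of Ezh2 fell unequally: probe A_51_P248067 was lower by 3.19 on the log2 scale (SE 0.21, adjusted p = 2.26e-07 in the fit of all probes), while the other 4 differed by -0.53, -0.50, -0.36 and -0.22. Of these 4, the probe at -0.53 (SE 0.13) had an adjusted p of 0.0428, and the brightest, at -0.22 (SE 0.13), had one of 0.515. With median centring in place of loess that brightest probe was at 0.32, the opposite sign. Which probes lie in the deleted part of Ezh2 was not analysed here, and a probe outside that part does not check the label.

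Of 15646 genes tested, 723 (4.62%) differed between double knockout and control, 580 (3.71%) of them higher and 143 (0.914%) lower in the double knockout. By at least 1.5-fold, 295 were higher and 54 lower. The median difference over all genes was 0.0063. With median centring in place of loess the median gene shifted by 0.38 and the calls became 5095 higher and 174 lower, so the excess of rises over falls is given here relative to the loess baseline. For 1461 genes (9.34%) no array of either group fell within the range of the other, and 671 of the 723 called genes were among them. The slides gave differences that correlated across genes (Pearson r 0.69 and Spearman rho 0.59, as a description, since genes of an array share its RNA and normalization). The interaction of genotype with slide passed the threshold for 0 genes in limma, and 331 (2.12%) had an unadjusted p under 0.05. Without double-KO 3, 441 genes were called, and without control 3, 922 were, of which 585 (3.74%) were higher and 337 (2.15%) lower. Control 3 thus bore mainly on the number of falls.

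**Figure D1:**
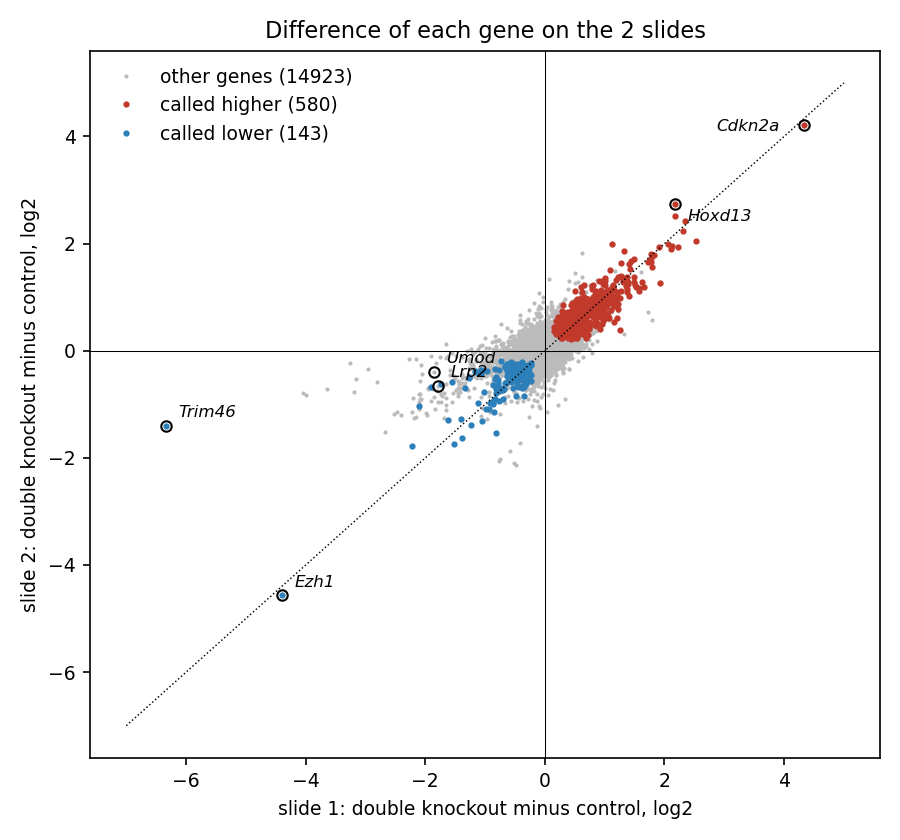
Double-knockout minus control difference of each of 15646 genes on slide 1 (x axis, 2 arrays per group) and slide 2 (y axis, 2 arrays per group), both on the log2 scale, with the dotted line marking equal differences. Cdkn2a and Ezh1 lie close to that line, while Trim46, Lrp2 and Umod were much lower on slide 1 than on slide 2.

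The largest rise was in a cell-cycle inhibitor. Cdkn2a, whose transcripts encode p16INK4a and p19ARF, had values of 4.51, 3.97, 4.64 and 3.89 in the double knockout and -0.03, -0.15, 0.02 and 0.06 in controls. This probe, the brighter of the pair for Cdkn2a, was well above background on 0 of 4 control arrays and on 4 of 4 double-knockout arrays. Where a probe was not above background on any array of the dimmer group, the fold is written as at least N-fold. The number is then the smaller of the measured fold and a bound set by the lowest detectable Cy5 signal, and it was the measured fold for every gene given here. It holds for the brightest probe with this background correction, and dye bias can enter it, since there was no dye swap. The double-knockout level of Cdkn2a was at least 19.4-fold above control. The measured difference was 4.28 (SE 0.33, adjusted p = 9.43e-07), and a dimmer Cdkn2a probe differed by 0.92 (SE 0.10, adjusted p = 8.07e-05 in the fit of all probes). The mean of both probes differed by 2.60 on the log2 scale.

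The 4 other leading rises were, like Cdkn2a, taken from called genes whose arrays did not overlap. Hoxd13, which patterns digits and the genital tubercle, was at 2.41, 2.12, 2.70 and 2.54 against 0.22, -0.06, -0.05 and -0.19 in controls, at least 5.52-fold higher. The long non-coding RNA Miat was at 2.04, 1.39, 1.79 and 2.21 against -0.27, -1.0, -0.42 and -0.44 on its brightest probe. A dimmer Miat probe differed by 0.18 (SE 0.08, adjusted p = 0.382 in the fit of all probes). The zinc-finger repressor Bcl11a, known for silencing fetal globin, was at 2.41, 1.89, 2.35 and 2.13 against 0.13, -0.18, -0.09 and -0.47. In each of these genes the lowest double-knockout array stood above the highest control by more than 1 log2 unit. Hoxb13, a gene of tail, prostate and hindgut, was at 2.86, 2.24, 2.35 and 1.79 against -0.03, 0.08, -0.10 and 0.15, at least 4.87-fold higher.

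**Figure D2:**
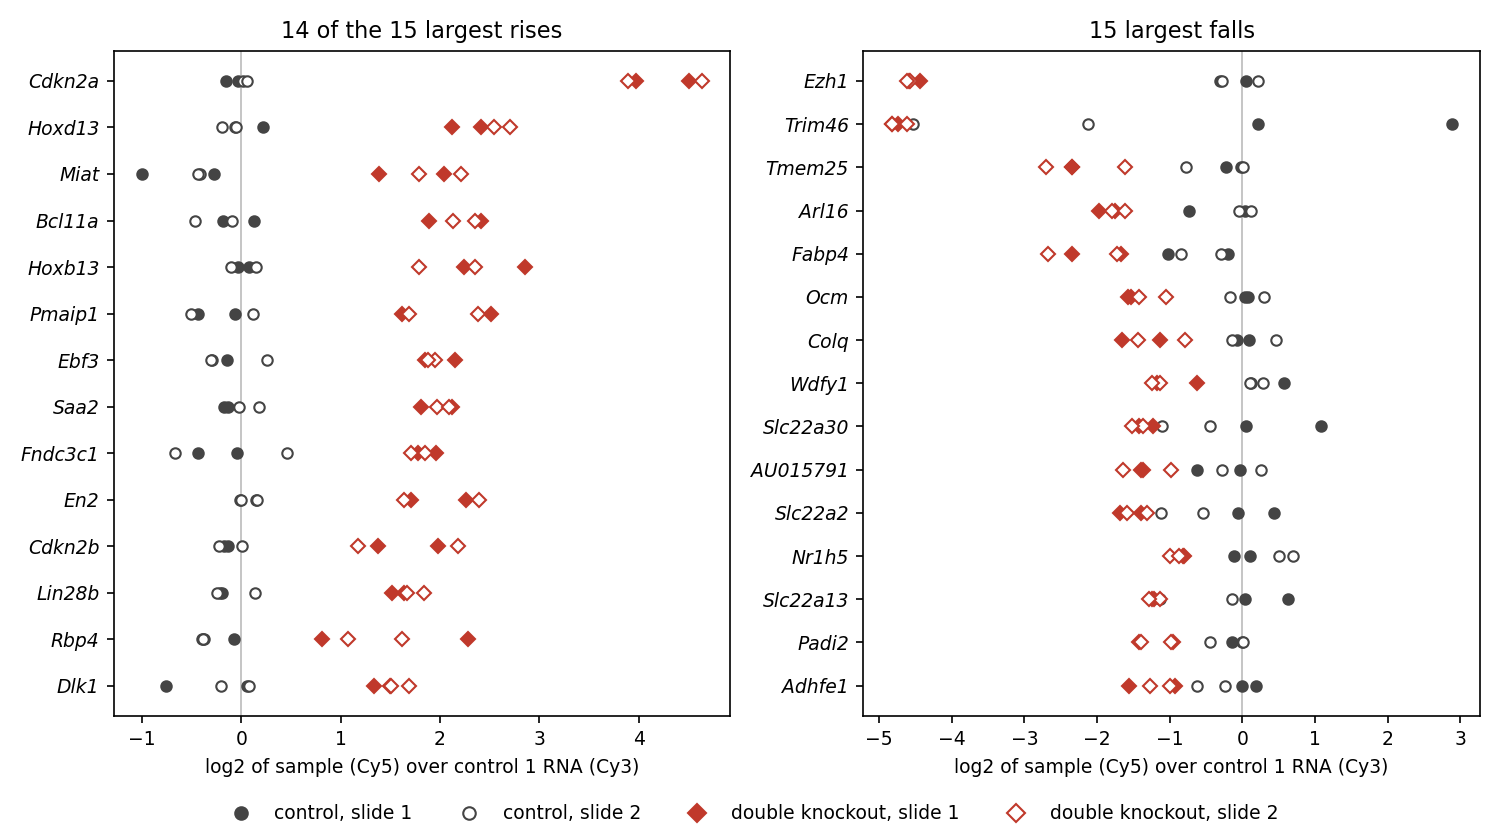
Log2 ratio to control 1 RNA (x axis) on each control array (grey circles) and double-knockout array (red diamonds) for 14 of the 15 called genes with the largest rise (left) and the 15 with the largest fall (right) among those whose arrays did not overlap. Filled symbols are slide 1 and open symbols slide 2. The separation of the groups follows from this choice of genes. Control 3 lies next to the double knockouts for Trim46, Slc22a30, Slc22a2 and Slc22a13.

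The stretches just upstream of some of these genes are shown because CG-rich promoters are a known feature of PRC2 targets. They are the 120 bases before the RefSeq transcription start (build GRCm38.p6), written 5′ to 3′ on the gene's strand, with every CG in capitals. They are examples picked from the 15 largest rises and falls, and other genes of those sets with a window in the RefSeq promoter table are not shown. Cdkn2a has 2 windows, chr4:89294620-89294739 and chr4:89282193-89282312, both on the minus strand. The others are chr2:74668105-74668224 (Hoxd13, plus strand), chr11:24080575-24080694 (Bcl11a, plus), chr10:45470202-45470321 (Lin28b, minus), chr3:102964134-102964253 (Nr1h5, minus) and chr5:144050610-144050729 (Ocm, minus).
Cdkn2a, first window: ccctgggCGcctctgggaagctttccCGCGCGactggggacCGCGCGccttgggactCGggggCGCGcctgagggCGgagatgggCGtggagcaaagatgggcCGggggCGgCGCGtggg
Cdkn2a, next window: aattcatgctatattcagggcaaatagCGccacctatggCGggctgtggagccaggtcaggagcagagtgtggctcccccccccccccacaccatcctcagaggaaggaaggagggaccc
Hoxd13: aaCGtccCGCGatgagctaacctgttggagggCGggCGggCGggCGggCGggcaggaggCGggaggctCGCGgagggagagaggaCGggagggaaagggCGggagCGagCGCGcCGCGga
Bcl11a: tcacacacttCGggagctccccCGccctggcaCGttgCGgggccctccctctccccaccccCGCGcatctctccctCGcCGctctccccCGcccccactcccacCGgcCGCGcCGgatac
Lin28b: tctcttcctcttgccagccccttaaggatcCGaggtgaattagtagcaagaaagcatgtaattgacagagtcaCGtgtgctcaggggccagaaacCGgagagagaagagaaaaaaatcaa
Nr1h5: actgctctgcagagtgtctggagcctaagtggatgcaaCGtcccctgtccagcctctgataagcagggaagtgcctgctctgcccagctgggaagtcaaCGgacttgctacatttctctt
Ocm: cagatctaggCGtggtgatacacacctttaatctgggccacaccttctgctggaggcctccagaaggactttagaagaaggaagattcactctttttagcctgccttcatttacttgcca

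The first Cdkn2a window holds 16 CG and the next one 2. Hoxd13 holds 18 and Bcl11a 13, while Lin28b, which also rose, holds 3. Nr1h5 and Ocm, which fell, hold 2 and 1. Of 32851 such stretches of 120 bases in the RefSeq table, 82.2% hold at least 1 CG, the median holds 3 and 23.5% hold 10 or more. These 7 stretches are a description of single genes. As picked examples they cannot show whether CG content differs between rises, falls and other genes. A comparison of CG content between called and other genes is void, because only 79.1% of tested genes and 74.0% of the called rises have a promoter window in the table, fewer than the 80% needed. Foxf1, Hoxb13 and Fabp4 were named without a window.

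Of 8 inhibitors of cyclin-dependent kinases, 4 rose and 0 fell, with a median difference of 0.56 beside 0.0063 over all genes. Of all 15646 genes tested, 3.71% rose and 0.914% fell, and these shares stand beside each list count made with the filter. Cdkn2b, which encodes p15INK4b next to Cdkn2a, was at 1.98, 1.38, 2.18 and 1.17 in the double knockout and -0.13, -0.17, -0.22 and 0.01 in controls. The difference was 1.80 (SE 0.22, adjusted p = 0.000125). Cdkn2c (p18INK4c) rose by 1.00 (SE 0.10, adjusted p = 1.39e-05) and Cdkn1a (p21), a transcriptional target of p53, by 0.81 (SE 0.17, adjusted p = 0.0107). For Cdkn1a the groups overlapped, with double-KO 4 at 0.34 and control 2 at 0.35. Its call ended with only the 2 groups fitted (limma adjusted p = 0.0739). A dimmer Cdkn1a probe differed by 0.34 (adjusted p = 0.139 in the fit of all probes). The remaining members, Cdkn1b, Cdkn1c, Cdkn2d and Cdkn3, were at 0.07, 0.31, 0.00 and 0.14 and were not called.

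Of 23 p53 target genes, 7 rose, 0 fell and 16 were not called, with a median of 0.32. Pmaip1, which encodes the pro-apoptotic protein Noxa, was at 2.51, 1.62, 2.38 and 1.69 in the double knockout and -0.06, -0.44, -0.51 and 0.12 in controls (difference 2.27, SE 0.25, adjusted p = 3.92e-05). Ccng1 (cyclin G1) rose by 1.15 (SE 0.18), Zmat3 by 1.04 (SE 0.13) and the death receptor gene Eda2r by 0.72 (SE 0.11). Tnfrsf10b, Bbc3 (Puma) and Aen were higher by 0.58, 0.46 and 0.38. Mdm2, the p53-induced ligase that degrades p53, was at 0.12 and Bax at 0.24, and neither was called. Of 36 proliferation and mitosis genes, 0 were called by limma, and their median difference was 0.18. On the single arrays the mean over the proliferation genes was 0.06, 0.01, 0.14 and 0.18 in the double knockout and -0.02, -0.29, 0.06 and -0.04 in controls, so the groups overlapped.

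The Hox genes split by their position in the clusters. Of 6 genes of groups 12 and 13, the posterior end, 5 rose and 0 fell, with a median of 1.11. Beside Hoxd13 and Hoxb13, Hoxa13, which patterns limb and hindgut, was at 1.57, 1.66, 1.63 and 1.11 against -0.07, -0.02, 0.17 and 0.19 (at least 2.68-fold higher, adjusted p = 4.14e-06). Hoxc13 was at 0.84, 0.46, 1.00 and 0.56 against -0.13, -0.11, -0.06 and -0.01 (at least 1.73-fold higher, adjusted p = 0.000118), and Hoxc12 rose by 0.78 (SE 0.09). Hoxd12 was at 0.26 and not called. Controls lay near 0 for each of these genes and overlapped no double-knockout array for the 5 that rose.

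The more anterior Hox genes, several of which the kidney itself uses, did not share that pattern. Of 10 genes of groups 9 to 11, 0 rose and 1 fell, with a median of -0.15. The fall was Hoxd11, one of the paralogs that specify the metanephric kidney, by 0.54 on the log2 scale (SE 0.14, adjusted p = 0.0345). That call ended without any 1 of control 2, control 3, control 4, double-KO 1, double-KO 3 or double-KO 4, with values of -0.55 to -0.46, while Hoxa11 was at -0.20 and Hoxa10 at -0.46. Of 22 tested genes of groups 1 to 8, 2 rose and 1 fell (2 and 1 of 23 with no filter on dim probes). Among the rises was Hoxd1, by 0.33 (SE 0.07), at 0.29 and an adjusted p of 0.0525 without control 4. Hoxb3 fell by 0.92 (SE 0.23), a call that ended without control 2, double-KO 1, double-KO 3 or double-KO 4 (values of -0.90 to -0.72).

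Transcription factor genes of tissues other than kidney were counted with no filter on dim probes, because members that are silent in control kidney pass the filter only through the group in which they are on. In that fit 3.07% of 22911 genes were called, 2.46% higher and 0.611% lower. Of 38 limb, heart and mesoderm factors 13 rose and 0 fell (median 0.20), of 19 endoderm factors 6 rose and 0 fell (0.05), and of 46 neural factors 10 rose and 0 fell (0.09). Most members of each list were thus not called. Among them, Tbx4, Tbx5, Myod1 and Pax7 of mesoderm, Pdx1 and Cdx2 of endoderm, and Olig2, Neurod1 and Pax6 of brain had differences between -0.17 (Myod1) and 0.18 (Tbx5).

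Among the mesodermal factors, Foxf1, a forkhead gene of lung and gut mesenchyme, had the largest rise, with values of 1.72, 1.49, 1.83 and 1.67 against -0.14, -0.12, 0.06 and 0.10 (at least 3.26-fold higher, adjusted p = 8.47e-09). Pitx1, a hindlimb factor, was at 1.5, 1.51, 1.79 and 1.09 against 0.07, -0.24, -0.17 and 0.81, where control 4 lay closest to the double knockouts. Tbx3 rose by 1.35 (SE 0.26, adjusted p = 0.00499), with controls spread from -0.86 to 0.26, and with controls 2 and 3 left out it was at 0.91 (adjusted p = 0.0901). Smaller rises were in Nkx2-5 of the heart (0.94), Alx4 (0.85), Tbx15 (0.83) and Pax3 (0.79).

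Of the endoderm factors, Foxa2, a pioneer factor of gut, lung and floor plate, was at 1.67, 0.87, 1.31 and 1.00 against -0.02, -0.22, -0.13 and -0.05 (difference 1.32, SE 0.14, adjusted p = 3.38e-05). Its relative Foxa1 was at least 2.11-fold higher (adjusted p = 0.000108), while Foxa3 was at -0.11. Onecut2 of liver and pancreas was at 1.36, 1.43, 1.54 and 0.99 against 0.02, 0.09, -0.17 and 0.01. Nkx6-1 of pancreas and neural tube rose by 1.11 (SE 0.21). Foxa2, Foxa1 and Onecut2 thus had double-knockout arrays that all lay above every control.

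Of the neural factors, among which Bcl11a was also counted, Ebf3 was at 2.15, 1.85, 1.95 and 1.88 against -0.14, -0.29, -0.31 and 0.26 (difference 2.08, SE 0.16, adjusted p = 6.82e-07). En2 of the midbrain and hindbrain was at 2.26, 1.71, 2.39 and 1.64 against 0.15, -0.01, 0.00 and 0.16. Markers of finished neurons and glia did not move together: of 18 with a probe, 2 rose (Nefm and Gap43), 1 fell (Dcx), and 15 were not called. Of these, Gap43 was at 0.46 (adjusted p = 0.0509) without double-KO 1, and Nefm (0.67, SE 0.17) lost its call without control 2, control 4, double-KO 3 or double-KO 4 (values of 0.56 to 0.64). On the single arrays the mean over this list was 0.12, 0.04, 0.15 and 0.12 in the double knockout and -0.01, -0.07, 0.03 and 0.08 in controls, and its part in the rises of neural factors was not tested.

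**Figure D3:**
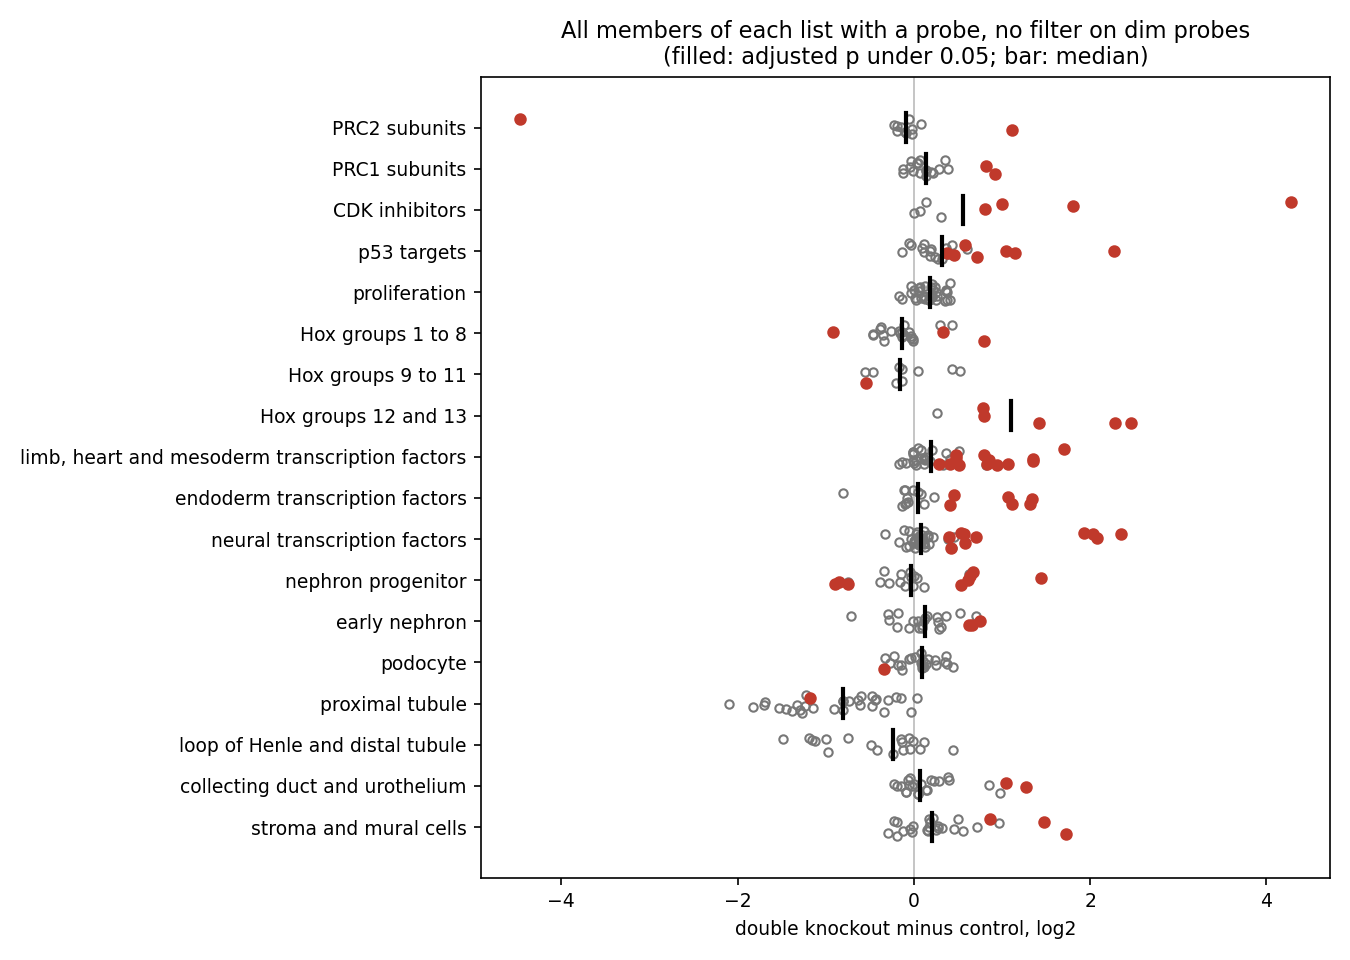
Double-knockout minus control difference (x axis, log2) of all members with a probe in 18 gene lists, in a fit with no filter on dim probes. Red filled points passed an adjusted p of 0.05, open points did not, and bars are medians. The members of Hox groups 12 and 13 and the CDK inhibitors have medians of 1.11 and 0.56, while the proximal tubule list has a median of -0.80 with 1 member called.

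Counted by detection, 66 of 22911 genes had a probe well above background on 4 of 4 double-knockout arrays and on 0 of 4 control arrays. The reverse held for 14 genes. Of the same control arrays, 60 and 1 genes were detected in these ways in Ezh2-KO, and 67 and 7 in Ezh1-het. Cdkn2a, Hoxd13, Hoxb13 and Lin28b are in the first set of the double knockout. The reverse set holds Kap (at least 3.25-fold lower, adjusted p = 0.0824) and Lamb3 (at least 3.94-fold lower, adjusted p = 0.0951), neither of which was called.

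Genes of the Lin28 and let-7 pathway, which keeps embryonic growth programmes on, rose in part. Lin28b, whose protein blocks let-7 maturation, was at 1.64, 1.52, 1.84 and 1.67 against -0.21, -0.19, -0.24 and 0.14, at least 3.46-fold higher on its brightest probe (adjusted p = 1.81e-07). The mean of its probes that passed the filter differed by 1.15 on the log2 scale. A further Lin28b probe, above background on 0 arrays, was at -0.02. The oncofetal RNA-binding protein gene Igf2bp3 was at 1.23, 1.69, 1.22 and 1.13 against 0.00, 0.18, -0.25 and 0.40, and the orphan receptor gene Nr6a1 rose by 0.93 (SE 0.11). These 3 of 13 members rose and 0 fell, with a median of 0.14. Lin28a was at 0.04, Igf2bp1 at 0.08 and Hmga2 at 0.20, and none of these was called.

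Within the Polycomb machinery itself, the core PRC2 partners Eed, Suz12 and Rbbp4 were at -0.10, 0.08 and -0.09 and were not called. Of 12 PRC2 genes, 1 fell (Ezh1) and 1 rose: Epop, an accessory subunit, by 1.11 (SE 0.15, adjusted p = 0.000282), with values of 0.63, 0.94, 0.78 and 1.10 against -0.12, -0.28, 0.05 and -0.66. Beside 3.71% of all genes tested, 2 of 19 PRC1 genes rose (10.5%) and 0 fell. Among them Bmi1, a subunit known for repressing Cdkn2a, was at 1.20, 0.65, 0.99 and 0.91 against 0.20, -0.18, 0.02 and 0.01. Of 15 other chromatin enzymes, limma called 0.

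Other large rises were in secreted and matrix genes. The acute-phase genes Saa1 and Saa2 rose by 1.69 (SE 0.23) and 2.03 (SE 0.25), and their sequences are near-identical, so their signals may not be separate. The liver-type list they belong to had 2 rises and 1 fall (Vtn, -0.46) among 21 members with a probe, and Alb, its most liver-specific gene, was at 0.24 and not called. The retinol carrier Rbp4 was at 2.28, 0.81, 1.62 and 1.07 against -0.07, -0.38, -0.40 and -0.39, the widest spread among the 15 largest rises. The Notch-family ligand gene Dlk1 was at 1.5, 1.34, 1.69 and 1.51 against 0.06, -0.76, -0.20 and 0.08, the matrix gene Fbln2 rose by 1.48 (SE 0.20), and Fndc3c1 by 2.00 (SE 0.24).

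The falls were fewer and mostly smaller. Apart from Ezh1 and Trim46, the largest fall was in the immunoglobulin-family gene Tmem25, which was at -2.34, -2.35, -1.62 and -2.70 against -0.02, -0.23, -0.78 and 0.01 (difference -2.0, SE 0.38, adjusted p = 0.00465). Arl16, a small GTPase gene, was at -1.75, -1.98, -1.79 and -1.62 against 0.03, -0.73, 0.12 and -0.05. Fabp4, a fatty-acid carrier of fat cells and endothelium, was at -1.67, -2.34, -1.72 and -2.68 against -0.20, -1.02, -0.29 and -0.85, and the calcium-binding Ocm at -1.57, -1.54, -1.42 and -1.05 against 0.04, 0.08, 0.30 and -0.17. For each of these 4 genes every double-knockout array lay below every control. That separation follows from their choice among called genes whose arrays did not overlap. With a trend and robust estimate of the variance in limma, the calls of Tmem25 (adjusted p = 0.133) and Fabp4 (adjusted p = 0.0629) ended. Those of Arl16 and Ocm did not. A dimmer Fabp4 probe differed by -0.53 (SE 0.17, adjusted p = 0.148 in the fit of all probes). Colq, which anchors acetylcholinesterase, fell by 1.34 (SE 0.17), and the bile-acid receptor relative Nr1h5 was at least 2.25-fold lower (adjusted p = 4.92e-05). Wdfy1 fell by 1.31 (SE 0.19) on its brightest probe, by 0.99 on another, and was at 0.07 on the last.

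Trim46 had a difference of -3.87 (SE 1.02, adjusted p = 0.0379), behind that of Ezh1, but its controls did not agree among themselves. They were at 0.22, 2.88, -4.53 and -2.12, against -4.74, -4.83, -4.82 and -4.62 in the double knockout, so control 3 lay next to the double knockouts and control 2 far above the others. The call ended without any 1 of control 1, control 2 or the 4 double-knockout arrays (values of -3.91 to -2.61), and another Trim46 probe was at -0.02.

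Nephron progenitor genes moved both ways. Cited1, which marks the most undifferentiated progenitors, was at -1.04, -1.06, -0.90 and -0.69 against -0.04, -0.02, 0.34 and -0.39 (difference -0.90, SE 0.13, adjusted p = 0.000586). Crym fell by 0.85 (SE 0.17) and Traf1 by 0.75 (SE 0.18), the latter at -0.75 to -0.66 and not called without control 1, control 2, double-KO 1 or double-KO 3. With median centring, where the median gene stood at 0.38, Cited1, Crym and Traf1 were at -0.31, -0.17 and -0.35 and none was called.

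In all, 5 of 22 progenitor genes rose, 3 fell and 14 were not called, with a median of -0.03. Among the rises were Lypd1 (0.67), Fgf9 (0.64), Tmem100 (0.61) and Meox2 (0.53). Six2, the defining self-renewal factor, was at -0.88, -0.21, -0.55 and 0.08 in the double knockout and -0.03, -0.02, 0.60 and -0.55 in controls, so the groups overlapped (difference -0.39, SE 0.26, 95% interval -0.96 to 0.18, adjusted p = 0.496). With median centring Six2 stood at 0.31 (adjusted p = 0.454), the opposite sign. Pax2 was at 0.00 (SE 0.19) and Gdnf, the progenitors' signal to the ureteric bud, at 0.63 (SE 0.22, adjusted p = 0.139). Eya1 was at -0.15 (SE 0.13) and changed sign to 0.47 with median centring, which is near the shift of the median gene there.

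Of 25 early nephron genes, 3 rose and 0 fell, with a median of 0.13. Pax8, a factor of nephron specification, was at 0.65, 0.67, 0.53 and 0.39 against -0.01, -0.06, -0.09 and -0.08 (difference 0.62, SE 0.11, adjusted p = 0.0025), Npy rose by 0.75 (SE 0.14), and the growth factor gene Fgf8 by 0.66 (SE 0.15). Fgf8 was at 0.63 and not called without double-KO 3 (adjusted p = 0.0624). The inducers of the epithelial transition, Wnt4 and Lhx1, were at -0.06 (SE 0.16) and -0.19 (SE 0.31), and at 0.60 and 0.43 with median centring, neither of them called. Of 17 Wnt and beta-catenin targets with a probe, 4 rose and 0 fell in the fit with no filter (median 0.28): Rnf43 (1.11), Sp5 (1.00), Wif1 (0.87) and Apcdd1 (0.62), all known feedback inhibitors or targets of the pathway. Axin2, the most general target, was at 0.01, and Rnf43 was at 0.75 (adjusted p = 0.0578) with controls 2 and 3 left out.

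For proximal tubule genes the mean level of every double-knockout array lay below 3 of the 4 controls. The list had a median difference of -0.80 over 32 members with a probe, yet 1 member was called: Slc22a2, an organic cation carrier, at -1.40, -1.69, -1.31 and -1.59 against -0.06, 0.43, -1.12 and -0.54 (difference -1.18, SE 0.25, adjusted p = 0.0118). The mean over the list was -0.79, -1.53, -1.02 and -1.84 on the double-knockout arrays and -0.01, 0.35, -1.56 and -0.34 on the controls, so control 3 lay inside the double-knockout range. The median over the list was -1.32 on slide 1 and -0.39 on slide 2, which holds control 3. Without control 3, 15 of the 31 members that passed the filter fell and 0 rose, where 5.89% of all genes were called and 2.15% were lower. Without controls 2 and 3 together, 3 of 31 fell.

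The endocytic receptor gene Lrp2 shows the same spread, with -0.84, -2.26, -1.16 and -2.76 against 0.09, 0.38, -2.38 and -0.23 (difference -1.22, SE 0.66, adjusted p = 0.372). For genes of the loop of Henle and distal tubule the list means were -0.60, -0.89, -0.73 and -1.18 against -0.03, 0.03, -1.28 and -0.30, and limma called 0 of 17, or 5 of 17 (all lower) without control 3. Umod, the uromodulin gene of the thick ascending limb, was at -1.53, -1.88, -1.54 and -1.99 against -0.04, 0.34, -1.79 and -0.97 (adjusted p = 0.148), and Slc12a1, the sodium-potassium-chloride carrier there, was at -1.16 (SE 0.65). Control 3 was again level with the double knockouts for both. Other solute carriers among the 15 largest falls, Slc22a30 (-1.28) and Slc22a13 (-1.07), were also low on control 3 (-1.11 and -1.13). Slc22a30 lost its call without control 1 or without double-KO 2, 3 or 4 (values of -1.29 to -1.23), and Slc22a13 without any 1 array other than control 3 (values of -1.09 to -0.81).

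**Figure D4:**
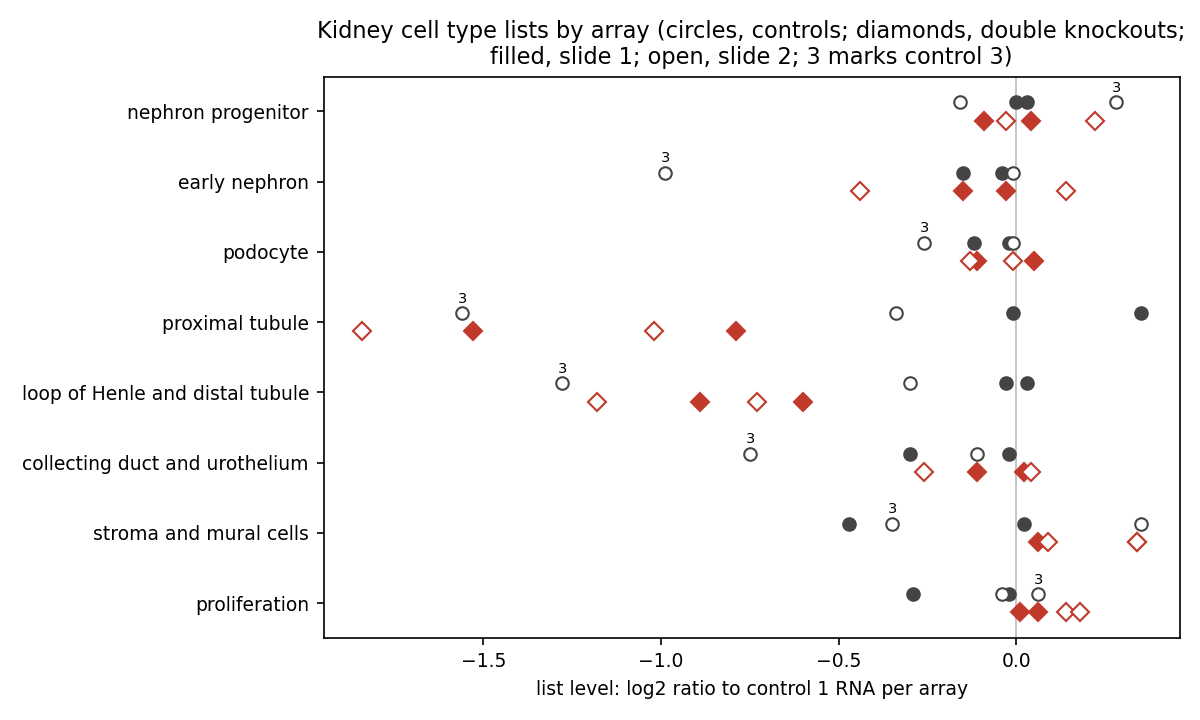
Mean log2 ratio to control 1 RNA (x axis) over each kidney cell type list and the proliferation list, with a point per array. Circles are controls and diamonds double knockouts, filled on slide 1 and open on slide 2, and the digit 3 marks control 3. For the proximal tubule list control 3 is at -1.56, inside the double-knockout range of -1.84 to -0.79.

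Of 25 podocyte genes with a probe, 0 rose and 1 fell (4%, near the 3.07% of all genes in the fit with no filter), with a median of 0.09. The fall was Actn4, an actin crosslinker, by 0.34 (SE 0.07), which stood at 0.26 with median centring. Nphs1 (nephrin) was at 0.14 (SE 0.21, adjusted p = 0.797). Of 24 collecting duct and urothelial genes with a probe, 2 rose (8.33%) and 0 fell, where 2.46% of all genes rose with no filter. The keratin gene Krt19 rose by 1.27 (SE 0.20), at 0.97, 1.13, 1.20 and 0.53 against -0.18, -0.48, -0.35 and -0.25. Upk1a rose by 1.04 (SE 0.23), and was at 0.91 with an adjusted p of 0.059 without double-KO 3. The branching genes Wnt11 and Ret were at 0.23 and 0.00, and Ret did not pass the filter. Among 25 stromal genes tested 4 rose (Dlk1, Fbln2, Meis1 and Foxd1) and 0 fell, or 3 of 26 with no filter, where Foxd1 was not called. Foxd1, the marker of stromal progenitors, was at 0.72 (SE 0.20, adjusted p = 0.045) and lost its call without control 2, control 4, double-KO 1, double-KO 3 or double-KO 4 (values of 0.51 to 0.76). Meis1 (0.86) was at 0.59 (adjusted p = 0.0538) with controls 2 and 3 left out.

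Imprinted genes, which are expressed from 1 parental allele and steer fetal growth, moved both ways: in the fit with no filter 5 of 22 rose and 1 fell (median 0.12). Sgce was at 1.33, 0.66, 1.33 and 0.87 against 0.09, -0.73, -0.79 and 0.42 (difference 1.30, SE 0.24), and at 0.79 (adjusted p = 0.056) without controls 2 and 3. Meg3 (0.93) was at 0.89 and not called without double-KO 3. Igf2 (0.55) lost its call without 6 single arrays (controls 1, 2 and 4 and double-KO 2, 3 and 4, values of 0.47 to 0.53). Mest (-0.54) lost it without controls 2, 3 or 4 or double-KO 1, 3 or 4 (values of -0.57 to -0.47), and stood at 0.12 with median centring. Of 20 germline genes with a probe, most of them silent, 1 rose (5%, near the 3.07% of all genes in that fit). It was Tdrd1, of the piRNA pathway, by 0.70 (SE 0.12).

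Few markers of other cells in a whole kidney were called. Limma called 0 of the neutrophil, erythroid, adrenal and skeletal muscle genes. Endothelial genes had 1 fall among 17 with a probe (5.88%, where 3.07% of all genes were called with no filter). It was Ramp2 (-0.77, SE 0.13), at -0.15 with median centring. Of 17 macrophage genes with a probe, 2 fell (11.8%, where 0.611% of all genes fell with no filter), both of MHC class II. H2-Eb1 was at -0.77, -0.86, -0.70 and -0.54 against -0.15, 0.13, 0.02 and 0.10. Cd74 (-0.51) was at -0.49 to -0.40 and not called without double-KO 1, double-KO 3 or control 4. Csf1r, C1qa and Adgre1, which define the cells, were at 0.24, 0.36 and 0.35 and were not called. Of 25 injury and senescence secretory genes, 1 rose (4%, near the 3.07% of all genes in the fit with no filter). It was Gdf15 (0.78, SE 0.17), at 0.69 with an adjusted p of 0.0641 without double-KO 3. Immediate early and heat-shock genes had a median of 0.38, which was -0.08 on slide 1 and 0.62 on slide 2, and limma called 0 of 18. Sexes were mixed in both groups: Xist was at -2.33, 0.04, -0.47 and -2.49 in the double knockout and 0.30, -1.91, -2.49 and -0.29 in controls, and the Y-linked Ddx3y differed by -0.08 (SE 0.20).

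Set beside the nearest genotypes, some of these genes did not differ from Ezh2 loss alone at this threshold and others were higher in the double knockout. These comparisons share the double-knockout arrays with the main one. The Ezh2-KO arrays lie in row 1 with the controls and the Ezh1-het arrays in row 2 with the double knockouts, so a gene that differs from Ezh2-KO and not from Ezh1-het follows the array row as well as the genotype, and these cannot be told apart. Against Ezh2-KO, 143 genes differed (0.914%), 100 (0.639%) higher and 43 (0.275%) lower in the double knockout, and against Ezh1-het 59 did (0.377%), 37 (0.236%) higher and 22 (0.141%) lower. All groups share an estimate of the spread in these fits. With only double knockout and Ezh1-het fitted, 1033 of 15646 genes were called, 155 higher and 878 lower. A gene not called against Ezh1-het is thus not shown to be level with it. Lin28b averaged 1.67 ± 0.13 (SD, n = 4) in the double knockout, 1.86 ± 0.05 in Ezh1-het and 1.80 ± 0.27 in Ezh2-KO, and its double knockout minus Ezh2-KO difference was -0.13 (SE 0.12, adjusted p = 0.678). Bcl11a averaged 2.20 ± 0.24, 1.87 ± 0.11 and 1.82 ± 0.12 in the same order, with a difference of 0.38 (SE 0.13, adjusted p = 0.207). Cited1 averaged -0.92 ± 0.17, -0.82 ± 0.17 and -0.72 ± 0.10. Neither Lin28b nor Bcl11a nor Cited1 differed between double knockout and either of these genotypes at this threshold.

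Cdkn2a averaged 4.25 ± 0.38 in the double knockout, 3.5 ± 0.12 in Ezh1-het, 1.21 ± 0.98 in Ezh2-KO and -0.03 ± 0.09 in controls. It was higher than in Ezh2-KO by 3.04 (SE 0.33, adjusted p = 7.47e-05; 3.65 with an adjusted p of 0.0555 on the deposited log ratios, where the call ended), while the difference from Ezh1-het was 0.75 (SE 0.33, adjusted p = 0.321). Cdkn2b, Pmaip1, Ccng1, Zmat3, Eda2r and Cdkn1a were also higher than in Ezh2-KO (by 1.08, 1.5, 1.08, 0.77, 0.65 and 0.88) and not called against Ezh1-het. Cdkn2c was called against both, by 1.08 and 0.51. Hoxd13 averaged 2.44 ± 0.25, 1.11 ± 0.12, 0.12 ± 0.17 and -0.02 ± 0.17 in the same order, and its difference was 2.33 against Ezh2-KO (SE 0.12, adjusted p = 1.66e-08) and 1.33 against Ezh1-het (SE 0.12, adjusted p = 6.15e-05). Hoxb13, Hoxc13, Foxf1, Foxa1, Foxa2, Onecut2, Ebf3 and Pitx1 were likewise higher than in both. Foxf1 averaged 1.68 ± 0.14 in the double knockout but 0.28 ± 0.10 in Ezh1-het and 0.09 ± 0.09 in Ezh2-KO. Hoxa13 was called against Ezh2-KO (1.35) but not against Ezh1-het (0.49, adjusted p = 0.0932).

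**Figure D5:**
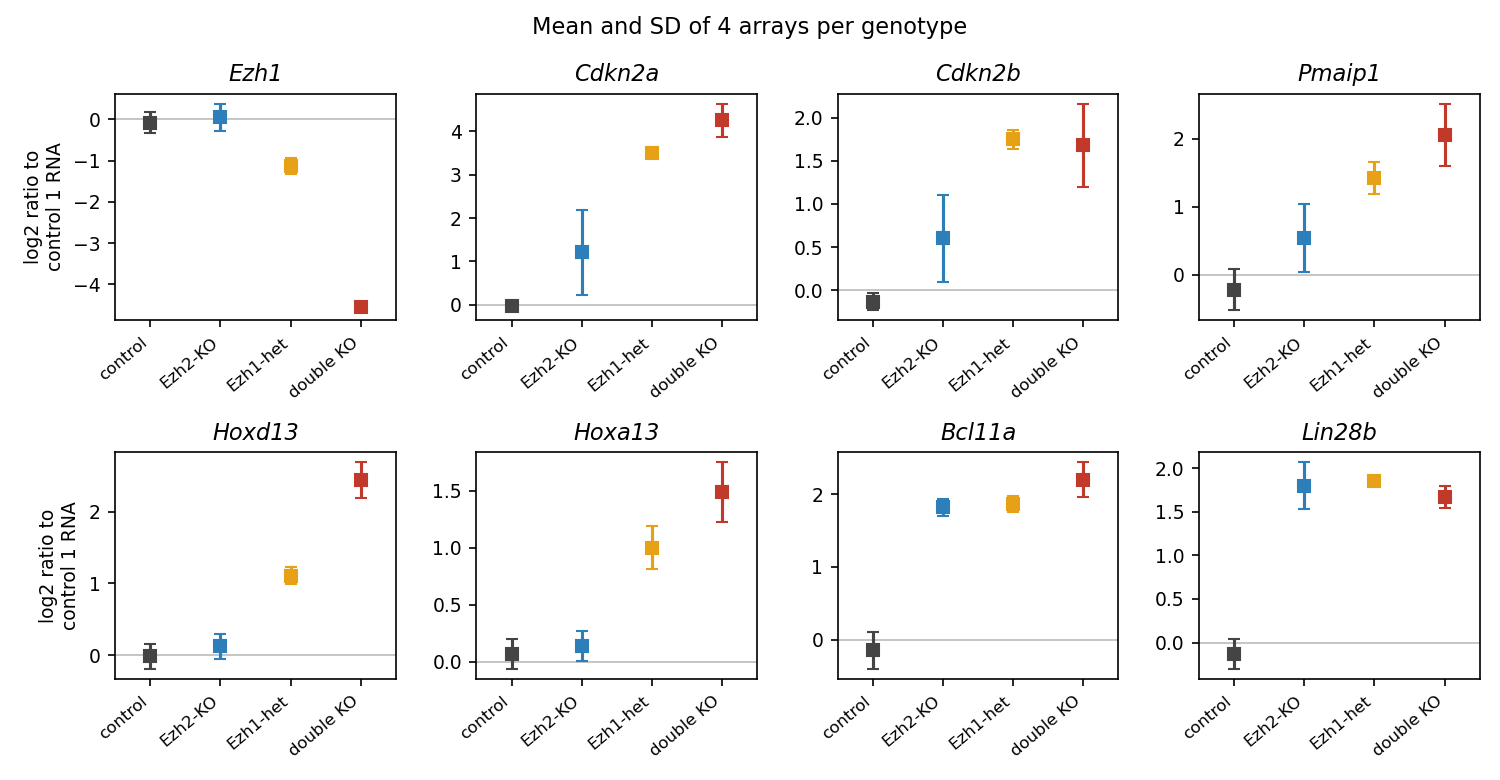
Mean and SD (bars) of 4 arrays per genotype as log2 ratio to control 1 RNA (y axis, a scale of its own for each gene) for 8 genes. Hoxd13 averages 2.44 in the double knockout, 1.11 in Ezh1-het and 0.12 in Ezh2-KO, whereas Lin28b averages between 1.67 and 1.86 in all 3.

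Among the largest rises against Ezh2-KO were Cdkn2a, Hoxd13 and Hoxb13, and also the predicted gene Gm11538 (1.65, SE 0.12) and the olfactory receptor gene Olfr224 (1.63, SE 0.09). Olfr224 averaged 1.66 ± 0.18 in the double knockout, 1.55 ± 0.10 in Ezh1-het and 0.03 ± 0.07 in Ezh2-KO, and Gm11538 1.60 ± 0.25, 0.59 ± 0.10 and -0.05 ± 0.23. Lower than in Ezh2-KO were Fabp4 (-2.0, SE 0.26), Arl16 (-1.93, SE 0.15) and the neutrophil genes S100a9 (-2.64), Cstdc5 (-2.13) and Stfa1 (-1.92). A dimmer Fabp4 probe differed from Ezh2-KO by -0.89. Arl16 averaged -1.79 ± 0.15 in the double knockout, -0.92 ± 0.19 in Ezh1-het and 0.14 ± 0.09 in Ezh2-KO. Against Ezh1-het, limma also called Arl16 (-0.86, SE 0.15, adjusted p = 0.0198) and Fabp4 (-1.30, SE 0.26, adjusted p = 0.0449). The neutrophil genes differed from control by -0.20, -0.03 and 0.02, and each lost its call against Ezh2-KO without any 1 of 4 to 6 arrays and with only the 2 groups fitted. For S100a9 these were Ezh2-KO 1, 2 and 3 and double-KO 2, 3 and 4 (values of -2.75 to -2.02). For Stfa1 they were Ezh2-KO 2 and 3 and double-KO 2, 3 and 4 (-2.06 to -1.85), and for Cstdc5 Ezh2-KO 3 and double-KO 2, 3 and 4 (-2.16 to -2.04).

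Genes around the germline Ezh1 mutation were examined because a mutant allele can carry a stretch of neighbouring chromosome with it. Of the 25 genes on either side of Ezh1 in the annotation's order, 39 were tested. Of these 1 was called against control, where 4.62% of all genes tested were called. It was Ramp2, a receptor-activity modifier next to Ezh1, at -1.02, -0.89, -0.95 and -0.63 against -0.10, -0.25, 0.24 and -0.31. With median centring its difference from control was -0.15. Against Ezh2-KO 0 of the 39 were called by limma, and Ramp2 was at -0.48 (SE 0.13, adjusted p = 0.115). Over the whole of chromosome 11, which carries Ezh1, 1.77% of tested genes were called against Ezh2-KO, compared with 0.914% of all genes. Chromosomes 12 (2.22%) and 13 (2.25%) had larger shares, and the others had at most 1.42%.

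Over all 56605 distinct probes, named or not, 1030 (1.82%) differed between double knockout and control, 824 (1.46%) higher and 206 (0.364%) lower. Of 23611 probes without a gene symbol 215 (0.911%) were called in that fit, 159 (0.673%) higher and 56 (0.237%) lower. Among 38 named genes with more than 1 probe above the filter, 3 (Pax2, Wdfy1 and Wnt11) had probes of both signs.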

How the data were processed

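Agilent arrays with 2 dyes, hybridised with total RNA, were read from the scanner files. Per the file headers and the submitters' processing notes, the authors used Agilent Feature Extraction 10.7.3.1, and the deposited files hold median signal and background intensity per spot in each dye and a log10 ratio of Cy5 over Cy3. The value table deposited by the authors holds the same log10 ratio, rounded (largest difference 0.005, every array's median 0). Cy5 held the sample and Cy3 control 1 RNA on every array, per the labels, with no dye swap.

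Median intensities were corrected by normexp (offset 50) and normalized by loess within arrays, with control spots and outlier spots given weight 0 and outlier spots then dropped. Spots were averaged per probe, giving 56605 probes. Genes were represented by their brightest probe that the scanner marked well above Cy5 background on 4 or more of 16 arrays, and symbols came from the RefSeq gene table (GRCm38.p6): 32994 probes had 1 symbol, 0 several and 23611 none. All 16 arrays were fitted together with limma 3.58.1 in R 4.3.3 and adjusted by the Benjamini-Hochberg method, with a threshold of 0.05. The same fit was also run on simulated data with known changes. On those data it recovered 70% of genes changed by 0.6 on the log2 scale and 86% of those changed by 1. Of its calls there 7.81% were false, above the threshold of 0.05. These rates describe the simulated data only. Whether they hold for the real arrays, where many genes of an array can shift together and groups can differ in spread, was not tested. Only 4 arrays per group limit the precision. The design text calls replicates biological.

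Genes named are Ezh1 and Ezh2, the 15 largest rises and falls among called genes whose arrays did not overlap, up to 4 called members of each list, a fixed set of kidney genes, the leading genes against Ezh2-KO, and genes above background in 1 group only. Other list members are named as examples after their values were seen. Some genes that the rule takes in are not reported here. Members and lists were chosen with earlier results of these data known. Alternatives were other normalizations, filters and variance models, blocks, single slides and left-out arrays. Replicate numbers were not treated as pairs.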

Additional observations from a re-analysis of the deposited data

Results flagged for a closer look

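In 7 of 224 gene and group pairs examined, 1 of the 4 arrays stood apart from the other 3 by Dixon's criterion at the 95% level, where chance gives about 1 in 20. Values are log2 ratios to control 1 RNA. For Lin28b, control 4 was at 0.14 and the other controls between -0.24 and -0.19. For Rbp4, control 1 was at -0.07 and the others between -0.40 and -0.38. For Nr6a1, control 2 was at -0.44 and the others between -0.21 and -0.17. For Vtn, control 1 was at -0.07 and the others between -0.02 and -0.01. Among double knockouts, array 2 was at -0.62 for Wdfy1 (others -1.24 to -1.14), array 4 at 1.11 for Hoxa13 (others 1.57 to 1.66) and array 1 at 0.21 for Igf2 (others 0.55 to 0.61).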

How the results depend on the processing

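The number of genes called between double knockout and control (723) was 442 with the other genotypes left out of the fit, 229 on slide 1 alone, 113 on slide 2 alone, 5269 with median centring, 1407 with array weights and 450 without controls 2 and 3, and 441 to 922 with 1 array left out. Against Ezh2-KO (143) it was 66 with only those groups fitted, 13 on slide 2, 48 with probes above background on all 16 arrays, 699 with array weights, and 84 to 142 with 1 array left out. Against Ezh1-het (59) it was 1033 with only those groups fitted, 34 on slide 1, 3 on slide 2, 120 from Cy5 alone, 37 from the deposited ratio, 35 from the authors' value table, 4 with probes above background on all 16 arrays, 756 with array weights, and 26 to 37 with 1 array left out. The cause of these shifts was not tested. Ezh2 (0.32), Mest (0.12), Actn4 (0.26) and Eya1 (0.47) changed sign with median centring, where the median gene stood at 0.38, and so did Six2 (0.31), Wnt4 (0.60), Lhx1 (0.43) and Xist (0.02), which were not called. Of 88 named genes called against control, 69 kept their call whichever array was left out, and 65 also without controls 2 and 3. Same-numbered arrays of double knockout and control had deviations correlated at 0.25, 0.49, -0.28 and -0.32, so the numbers do not pair them, and the replicate block gave 740, 122 and 41 calls in the 3 comparisons. The promoter comparison was not rerun with no filter because its coverage was too low. Dim genes are limited by background, so the fold of a gene not above it in the dimmer group is given as a lower bound.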

Other observations

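Genes of antigen presentation were examined after their values were seen, so they carry no test as a group. Of 24 genes of MHC class I and its peptide loading machinery, 11 were higher in the double knockout and 0 lower (median 0.32, range -0.27 to 1.30). Of all genes tested, 3.71% were higher and 0.914% lower. H2-K1, a classical class I heavy chain, was higher by 1.30 (SE 0.18, limma adjusted p = 0.000354), H2-D1 by 0.93 (SE 0.18), the peptide transporter gene Tap1 by 0.76 (SE 0.11), Tap2 by 0.58 (SE 0.13) and the class I light chain gene B2m by 0.54 (SE 0.14). Class I heavy chains share sequence, so their probes may not be separate. The double knockout minus Ezh2-KO difference of H2-K1 was -0.02. Of 9 class II genes, 0 were higher and 2 lower (median -0.09), and of 29 interferon-induced genes limma called 0 (median 0.03, range -0.27 to 0.53).

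The double-knockout arrays differed among themselves. The mean over the CDK inhibitor list was 1.12 and 1.16 on arrays 1 and 3 and 0.83 and 0.79 on arrays 2 and 4. The mean over the p53 targets was 0.44 and 0.48 against 0.21 and 0.24, and that over the proximal tubule genes -0.79 and -1.02 against -1.53 and -1.84. Arrays 1 and 3 lie on different slides, as do 2 and 4, and this split was seen in the values and not tested.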
